A study of Mus musculus with 10 samples.

Results

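Wnt ligands, their Frizzled receptors, the co-receptors Lrp5 and Lrp6, the secreted antagonists of the Sfrp and Dkk families, the feedback gene Axin2 and the transcription factor Lef1 were followed in mouse embryonic fibroblasts lacking either of 2 subunits of the SWI/SNF chromatin remodelling complex. Members were chosen by gene symbol alone, as Wnt, Fzd, Sfrp or Dkk with a number and an optional a or b, together with Lrp5, Lrp6, Axin2, Tcf7 and Lef1. This gave 40 genes with 58 of the 22690 probe sets on the array, and no probe set carried the symbol Tcf7. Of these, 24 genes passed the filter on dim signal and were among the 8403 genes tested, of 12393 genes with a symbol.

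The cells were primary fibroblasts of embryonic day 13.5, of mixed C57BL/6 and 129 background, and 3 genotypes were compared: wild type (3 arrays), Snf5-/- (3 arrays) and Brg1-/- (4 arrays). Snf5, listed as Smarcb1, is a core subunit of SWI/SNF, and Brg1, listed as Smarca4, is one of its alternative ATPases. All 10 samples, wild type included, carry the same treatment text: Cre recombinase delivered by retrovirus, then selection in puromycin at 2.5 ug/ml. The labels give no floxed allele. Nor do they tell separate embryos from repeat arrays within a genotype, and the spread behind each p-value may thus be technical.

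Wnt proteins are lipid-modified secreted ligands that bind Frizzled receptors. With Lrp5 or Lrp6 as co-receptor, binding stabilises beta-catenin, which enters the nucleus and acts with TCF/LEF factors; other branches signal through Frizzled, Ror and Ryk receptors without beta-catenin. Sfrp proteins bind Wnt ligands outside the cell, Dkk1, Dkk2 and Dkk4 act on the Lrp co-receptors, and in embryonic mesenchyme the pathway is known for its part in limb, bone and skin patterning.

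Array medians of the deposited intensity ran from 146 to 234 and were highest in wild type, so values below are quantile-normalized intensities unless the deposited scale is named. A log2 change is between group means of log2 intensity, with its standard error (SE) and a Benjamini-Hochberg adjusted p from limma over all 8403 genes, called below 0.05. Background on each array was the highest of 27 bacterial control probe sets, 26.7 to 57.4 on the deposited scale. Smarcb1 was 753 to 846 in wild type and 301 to 303 in Snf5-/-, and Smarca4 was 2108 to 2459 in wild type and 452 to 695 in Brg1-/-. All 12 fibroblast markers were above background on every array, with a summed intensity of 89296 to 125344. Single fibroblast markers moved within that sum. S100a4 was 13400 to 19300 in wild type, 3480 to 9650 in Snf5-/- and 2150 to 4070 in Brg1-/-. Col3a1 was 4040 to 4460, 12700 to 19400 and 6660 to 14700. Markers of other cells also moved: the summed intensity of 7 skeletal muscle markers was 5197 to 6304 in wild type, 844 to 2218 in Snf5-/- and 586 to 963 in Brg1-/-, mostly from Acta1, while Tnnt1 was at or below background on all arrays. The 4 mesothelial markers on the array summed to 641 to 756, 144 to 224 and 162 to 251. Summed chondrocyte and osteoblast markers (6 on the array) were 732 to 820, 1096 to 1403 and 761 to 1248, with Col2a1 at 223 to 308 in wild type and 622 to 942 in Snf5-/- while Sox9 was at 109 to 135 and 85.5 to 101. The neural sum, mostly Nes, was 1584 to 1806, 852 to 1403 and 853 to 1115, and the epithelial sum was 1269 to 1609, 1021 to 1570 and 751 to 1049, with Epcam at or below background on all arrays. Leukocyte markers summed to 12693 in Snf5-/- replicate 2 and to between 2815 and 6764 elsewhere. Their part in the results was not tested. In a bulk culture, fewer cells of a type and less RNA per cell cannot be told apart.

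Of the 24 tested members, 9 passed the threshold in at least 1 mutant against wild type. The matching share over all genes was not counted, so this number is no measure of enrichment. Shares for each mutant follow below. Sequence upstream of 4 of the 9 is shown, those with a window outside the gene's annotated extent in the promoter table; Wnt16 changed in both mutants, Wnt11 in Snf5-/-, and Fzd1 and Fzd7 in Brg1-/- in opposite directions. Each run covers 200 bases, from 250 to 51 bases before the start site annotated for that promoter (GRCm38.p6). Runs read 5' to 3' on the gene's strand, with motif matches in capitals. For Wnt16 and Wnt11 that site lies inside the gene extent given below, so their positions are not counted from the gene's first base. The Wnt16 window is chr6:22287977-22288176 (plus strand), that of Wnt11 is chr7:98834862-98835061 (plus strand), that of Fzd1 is chr5:4758267-4758466 (minus strand) and that of Fzd7 is chr1:59481897-59482096 (plus strand).
Wnt16: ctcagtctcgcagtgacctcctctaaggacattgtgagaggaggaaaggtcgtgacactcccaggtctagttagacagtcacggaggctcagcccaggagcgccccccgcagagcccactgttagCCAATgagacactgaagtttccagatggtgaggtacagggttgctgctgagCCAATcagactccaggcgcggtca
Wnt11: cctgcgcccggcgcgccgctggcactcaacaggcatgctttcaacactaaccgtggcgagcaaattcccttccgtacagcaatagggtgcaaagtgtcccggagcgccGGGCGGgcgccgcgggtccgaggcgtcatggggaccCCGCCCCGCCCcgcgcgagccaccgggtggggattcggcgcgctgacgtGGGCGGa
Fzd1: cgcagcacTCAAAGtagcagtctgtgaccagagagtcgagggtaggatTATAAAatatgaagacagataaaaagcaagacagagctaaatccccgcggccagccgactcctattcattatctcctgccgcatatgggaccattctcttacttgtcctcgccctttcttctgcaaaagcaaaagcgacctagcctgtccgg
Fzd7: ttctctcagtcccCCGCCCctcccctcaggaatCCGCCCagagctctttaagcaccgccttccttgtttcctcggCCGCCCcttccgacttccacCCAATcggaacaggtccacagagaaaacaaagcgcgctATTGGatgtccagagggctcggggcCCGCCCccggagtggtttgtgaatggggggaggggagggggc
Both strands were searched for 5 motifs: the TCF/LEF core CTTTGA, the AP-1 site TGANTCA, the CCAAT box CCAAT, the TATA box TATAAA and the GC box GGGCGG, and matches of the GC box may overlap. The Wnt16 window held a CCAAT box at -125 and another at -74. The Fzd7 window also held 2 CCAAT boxes, with 4 GC boxes. The Wnt11 window held 4 GC boxes, and that of Fzd1 held a TCF/LEF core at -242 and a TATA box at -202. Over 32841 windows of the same length, 28.4% held a CCAAT box, 24.6% a GC box, 11.8% the TCF/LEF core, 9.14% a TATA box and 5.58% an AP-1 site. A match describes letters only. The Sfrp2 window and a second Wnt11 window (chr7:98838595-98838794) lie inside the annotated extent of their gene and are not printed. That second Wnt11 window held no match to any of the 5 motifs. Fzd2, Lrp6, Dkk3 and Fzd3 are named only.

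In Snf5-/- cells 5 of the 24 tested members rose and 0 fell. The risers were the ligands Wnt16 and Wnt11, the receptor Fzd2, the co-receptor Lrp6 and the antagonist Sfrp2. This is 20.8% of tested members, against 18.1% of all genes tested (10.6% higher and 7.47% lower). In Brg1-/- cells 8 of 24 changed (33.3%), against 27.8% of all genes (14.9% higher and 12.9% lower): Wnt16, Fzd2, Fzd1, Lrp6, Sfrp2 and Dkk3 rose, and Fzd7 and Fzd3 fell. Both shares lie near the share over all genes. The median log2 change of the tested members was 0.12 in Snf5-/- and 0.39 in Brg1-/-, against 0.02 over all genes in each, with 16 and 20 of 24 above 0, as were 52.4% and 51.5% of all genes. Both comparisons share the wild type arrays. The deposited scale moved the median of all genes to -0.27 and -0.47 and that of the members to -0.15 and -0.02, with 10 and 12 of 24 above 0, as were 24.9% and 15.5% of all genes. There 4 members rose in Snf5-/-, against 3.15% of all genes higher and 16.1% lower, and in Brg1-/- 3 rose and 3 fell, against 3.43% higher and 44% lower; 19.3% and 47.5% of all genes were called there. Arrays of mutant and wild type did not overlap for 7 members higher and 1 lower in Snf5-/- (35.7% of all genes did not overlap) and for 7 higher and 2 lower in Brg1-/- (39.4%).

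**Figure D1:**
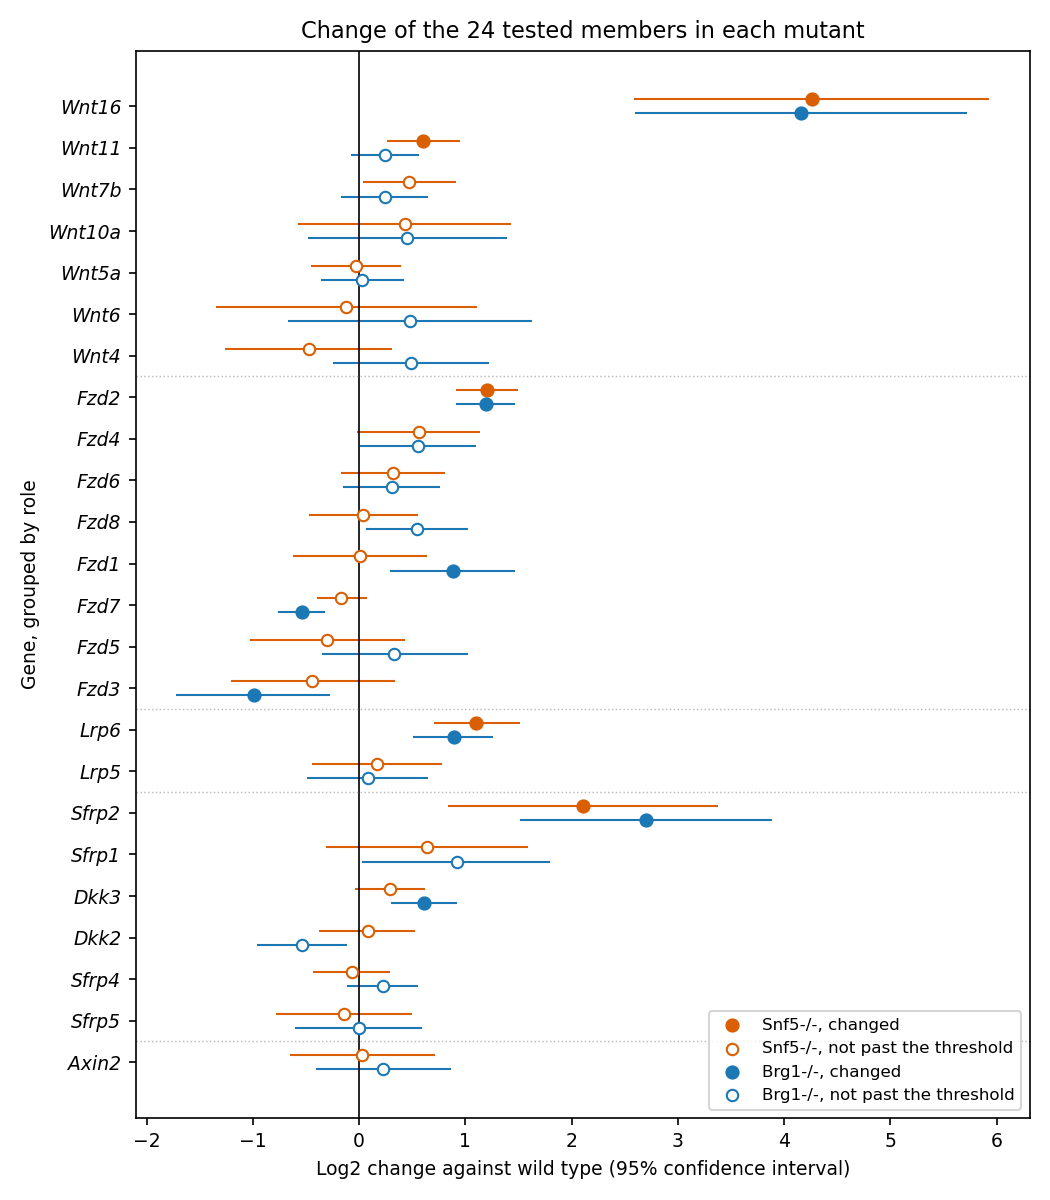
Log2 change against wild type of the 24 tested members in Snf5-/- and Brg1-/- cells, grouped by role, with 95% confidence intervals; filled points passed the threshold. Wnt16 is drawn at 4.26 and 4.16, values that depend on wild type arrays near background (2.15 and 2.06 with intensities below 32 raised to 32), and Fzd3 and Fzd7 are the members that fell in Brg1-/-.

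Among the ligands, 7 of 19 were tested. Wnt16 (chr6:22288178-22298522), a ligand linked to bone and joint tissue, was at 31.5, 4.78 and 2.75 on the wild type arrays, 105, 129 and 213 on the Snf5-/- arrays and 125, 139, 170 and 106 on the Brg1-/- arrays. All 7 mutant arrays lay above all 3 wild type arrays. Of the wild type arrays 2 were at or below background, and the gene passed the filter through its mutant arrays. The fitted log2 changes, 4.26 (SE 0.77, adjusted p = 0.00287) and 4.16 (SE 0.72, adjusted p = 0.00133), therefore depend on values near background. With intensities below 32 set to 32 they were 2.15 and 2.06. Mutant means were 4.15 and 3.88 times the wild type mean when wild type arrays at or below background were set to their background.

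Wnt11 (chr7:98835084-98854747), a ligand of the branches without beta-catenin, was at 224, 249 and 197 on the wild type arrays, 318, 398 and 305 on the Snf5-/- arrays and 276, 249, 243 and 287 on the Brg1-/- arrays. Snf5-/- arrays stood above those of both other genotypes, while Brg1-/- arrays overlapped wild type. It rose in Snf5-/- by 0.60 (SE 0.16, adjusted p = 0.0203), and its change in Brg1-/- was 0.24 (SE 0.15, adjusted p = 0.25). The call was lost on the deposited scale (0.34, adjusted p = 0.258), without wild type replicate 3 (adjusted p = 0.0858) and without Snf5-/- replicate 2 (0.49, adjusted p = 0.0621).

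No other tested ligand passed the threshold in a mutant. Wnt5a, the main ligand of the beta-catenin-independent branch, was at 813, 563 and 820 on the wild type arrays, 667, 569 and 923 on the Snf5-/- arrays and 798, 686, 822 and 652 on the Brg1-/- arrays. Its 95% confidence interval was -0.45 to 0.39 in Snf5-/- and -0.36 to 0.42 in Brg1-/-, and its second probe set changed by 0.07 and 0.05. Wnt4, a ligand of kidney and gonad development, changed by -0.47 and 0.49 with overlapping arrays. The changes of Wnt6 were -0.12 and 0.48, those of Wnt10a 0.43 and 0.45, and those of Wnt7b 0.47 and 0.24. Wnt6 and Wnt10a were each above background on 9 of the 10 arrays. A second, dimmer probe set of Wnt7b failed the filter: it was at 50.9, 35.3 and 39.5 on the wild type arrays, 23.1, 51.1 and 38.3 on the Snf5-/- arrays and 129, 92.5, 103 and 117 on the Brg1-/- arrays. In a fit without the filter, it was higher in Brg1-/- by 1.41 (adjusted p = 0.0198), while the brighter Wnt7b probe set was not past the threshold.

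**Figure D2:**
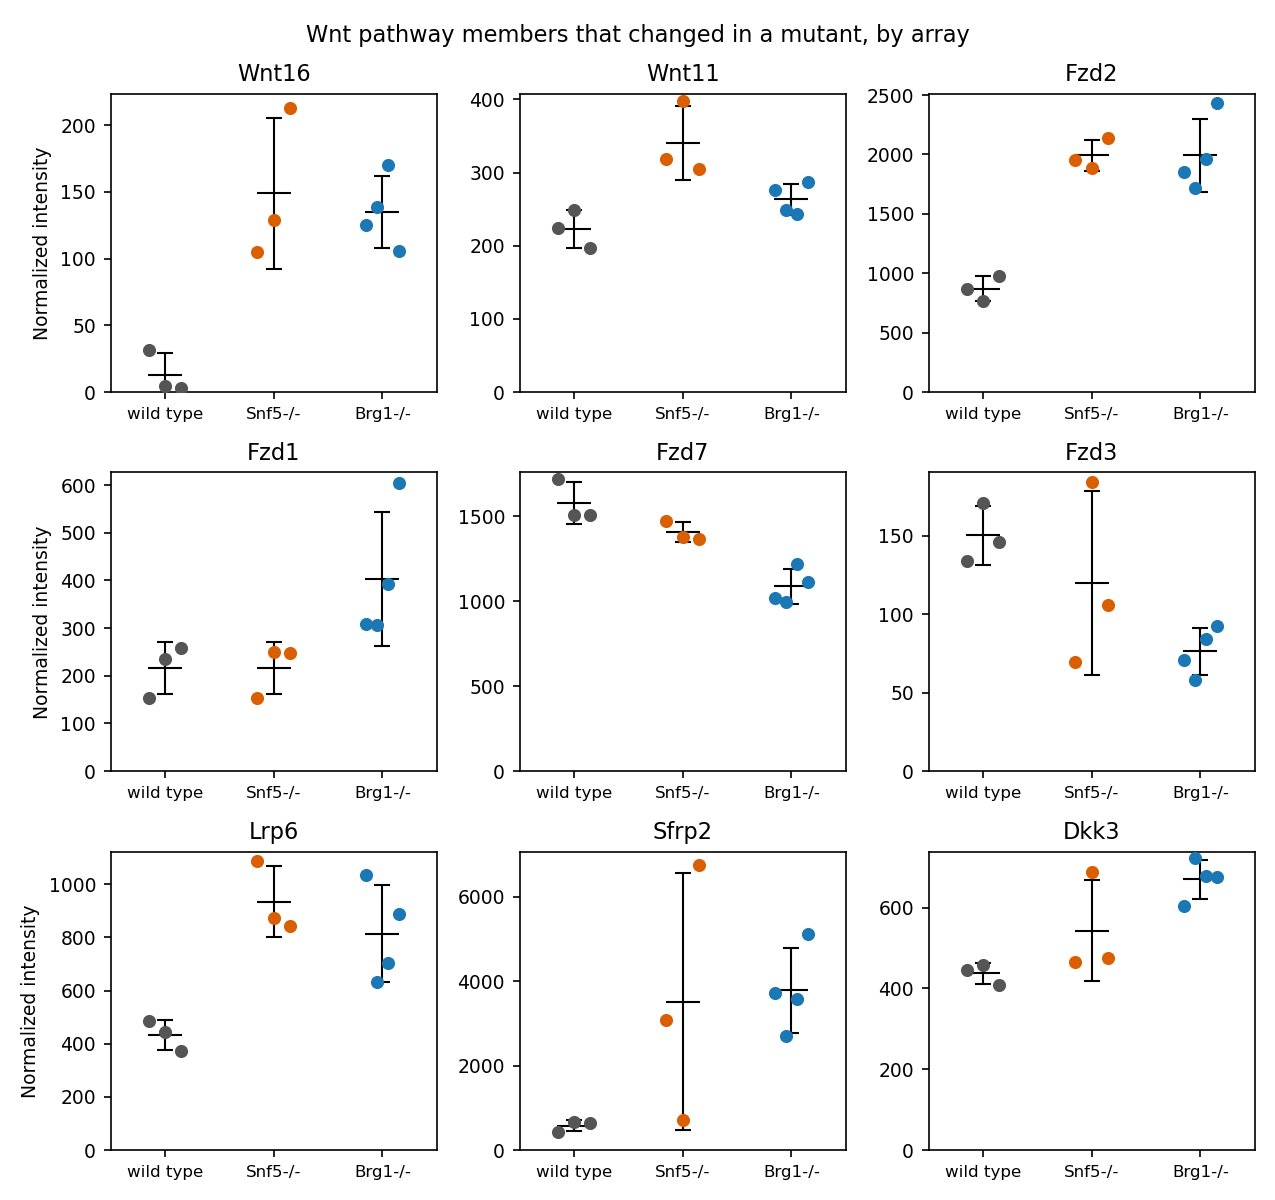
Quantile-normalized intensity on a linear axis for the 9 members that changed in a mutant, with 1 point per array and the mean with its SD for wild type (n = 3), Snf5-/- (n = 3) and Brg1-/- (n = 4). Fzd2, Lrp6, Wnt16 and Sfrp2 separate both mutants from wild type and passed the threshold in both. Dkk3 (higher) and Fzd7 (lower) also separate both mutants from wild type, but passed in Brg1-/- only. The Sfrp2 points of Snf5-/- run from 713, just above the highest wild type point of 677, to 6761.

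Among the receptors, 8 of 9 were tested. Fzd2 (chr11:102604431-102608058) was at 868, 766 and 974 on the wild type arrays, 1955, 1885 and 2137 on the Snf5-/- arrays and 1853, 1719, 1965 and 2430 on the Brg1-/- arrays. Every mutant array exceeded every wild type array. It rose by 1.20 (SE 0.14, adjusted p = 0.000125) and by 1.19 (SE 0.13, adjusted p = 4.85e-05), folds of 2.30 and 2.28. Its other 2 probe sets also rose, by 0.96 and 0.66 in Snf5-/- and by 0.93 and 0.47 in Brg1-/-. On the deposited scale the rises were 0.88 (adjusted p = 0.00584) and 0.62 (adjusted p = 0.0127).

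Fzd7 (chr1:59482147-59486955), a receptor of mesenchymal and stem cells, was at 1722, 1508 and 1509 on the wild type arrays, 1474, 1380 and 1367 on the Snf5-/- arrays and 1020, 998, 1221 and 1113 on the Brg1-/- arrays. The Brg1-/- arrays were the lowest of the 10, and the Snf5-/- arrays lay between. It fell in Brg1-/- by 0.54 on the log2 scale (SE 0.10, adjusted p = 0.00214), against -0.17 in Snf5-/- (SE 0.11, adjusted p = 0.318). Its second, dimmer probe set did otherwise: 134, 152 and 212 on the wild type arrays, 56.4, 92.6 and 105 on the Snf5-/- arrays and 171, 144, 160 and 176 on the Brg1-/- arrays. That probe set fell in Snf5-/- (-0.99, adjusted p = 0.0289) and changed by -0.01 in Brg1-/- (adjusted p = 0.984). On Snf5-/- replicate 1 its deposited value of 54 was below the background of 56.6, so the size of that fall depends partly on background. With the mean of both probe sets the values were -0.58 in Snf5-/- (adjusted p = 0.0133) and -0.27 in Brg1-/- (adjusted p = 0.133), so which mutant passed depended on the probe set.

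Fzd1 (chr5:4753839-4758216) was at 154, 236 and 259 on the wild type arrays, 154, 249 and 247 on the Snf5-/- arrays and 309, 307, 393 and 604 on the Brg1-/- arrays. Brg1-/- arrays were above the other 6, which overlapped. It rose in Brg1-/- by 0.88 (SE 0.27, adjusted p = 0.0305), and its Snf5-/- change was 0.01 (adjusted p = 0.99). The call was lost on the deposited scale (0.47, adjusted p = 0.153) and when wild type replicate 1 (adjusted p = 0.136) or 2 (0.0539), or Brg1-/- replicate 3 (0.0645) or 4 (0.0669), was left out.

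Fzd3 (chr14:65192441-65262463), a receptor of axon guidance and planar cell polarity, was at 134, 171 and 146 on the wild type arrays, 69.5, 184 and 106 on the Snf5-/- arrays and 70.6, 58.2, 84.5 and 92.3 on the Brg1-/- arrays. Brg1-/- arrays lay below wild type, and Snf5-/- arrays spanned both. It fell in Brg1-/- by 0.99 on the log2 scale (SE 0.33, adjusted p = 0.0432) and was at -0.44 in Snf5-/- (adjusted p = 0.433). On Brg1-/- replicate 2, the lowest array, its deposited value of 46.8 was below the background of 52.1. The gene's 3 other probe sets failed the filter; the pair above background on 10 and 9 arrays gave -0.32 and -0.40 in Brg1-/- (adjusted p = 0.647 and 0.553 in a fit without the filter) and 0.18 and 0.06 in Snf5-/-, with overlapping arrays. The Brg1-/- call was lost in 9 of the 19 alternatives in which it was tested, and among these were leaving out any wild type array (adjusted p = 0.082, 0.148 and 0.105 for replicates 1, 2 and 3), Snf5-/- replicate 3 (0.0505) or Brg1-/- replicate 1, 2 or 3 (0.0754, 0.0983 and 0.0638).

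The remaining tested receptors did not pass. Fzd8 was at 214, 150 and 168 in wild type and 255, 223, 288 and 260 in Brg1-/-, a difference of 0.54 (adjusted p = 0.0862) with no overlap, against 0.04 in Snf5-/-. Fzd4, the receptor of Norrin, changed by 0.56 and 0.55 (adjusted p = 0.169 and 0.119). Fzd5 changed by -0.30 and 0.33, and Fzd6, which acts in hair and skin polarity, by 0.32 and 0.31. A second Fzd6 probe set rose in Brg1-/- by 0.87 (adjusted p = 0.0324). Fzd9 was not tested.

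**Figure D3:**
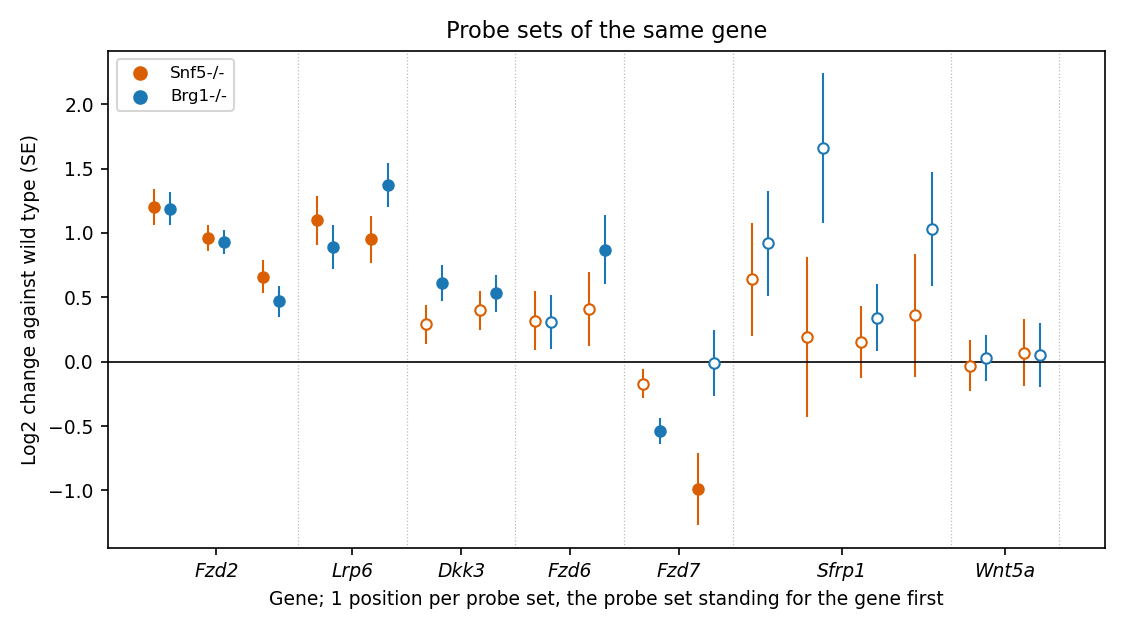
Log2 change against wild type with its SE for each probe set of 7 genes with several probe sets, the first position of a gene being the probe set that stands for it; filled points passed the threshold. All 3 Fzd2 probe sets and both Lrp6 probe sets lie above 0 in both mutants, while the 2 Fzd7 probe sets place the larger fall in different mutants.

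Both co-receptors were tested, and Lrp6 passed. Lrp6 (chr6:134446476-134566913), which is phosphorylated on Wnt binding and recruits Axin, was at 486, 443 and 373 on the wild type arrays, 1087, 871 and 843 on the Snf5-/- arrays and 1034, 632, 704 and 887 on the Brg1-/- arrays. No mutant array overlapped wild type. It rose by 1.10 (SE 0.18, adjusted p = 0.00182) and by 0.89 (SE 0.17, adjusted p = 0.00277). Its second probe set was at 218, 232 and 177, then 424, 318 and 482, then 510, 458, 628 and 563, and rose by 0.95 (adjusted p = 0.00462) and 1.37 (adjusted p = 0.000175). On the deposited scale the rise of the first probe set in Brg1-/- was 0.40 (adjusted p = 0.131) and no longer passed. Lrp5, the paralogue known for bone mass, was at 104, 121 and 93.2 on the wild type arrays, 132, 122 and 103 on the Snf5-/- arrays and 102, 114, 85.3 and 156 on the Brg1-/- arrays. These overlapped, with changes of 0.17 (95% confidence interval -0.44 to 0.78) and 0.08 (-0.49 to 0.65). The difference between Lrp6 and Lrp5 was not itself tested.

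Among the antagonists, 6 of 8 were tested. Sfrp2 (chr3:83765750-83774314), a Wnt-binding protein of embryonic mesenchyme, was at 427, 677 and 638 on the wild type arrays, 3092, 713 and 6761 on the Snf5-/- arrays and 3734, 2715, 3575 and 5133 on the Brg1-/- arrays. All Brg1-/- arrays were high, while Snf5-/- replicate 2, the array with the high leukocyte marker sum, lay just above wild type. It rose in Brg1-/- by 2.70 (SE 0.55, adjusted p = 0.00346) and in Snf5-/- by 2.11 (SE 0.58, adjusted p = 0.0263). Without Snf5-/- replicate 2 the Snf5-/- rise was 3.00 (adjusted p = 0.000124), and without Snf5-/- replicate 3 it was 1.38 (adjusted p = 0.0726). The Snf5-/- call was also lost without wild type replicate 1 (0.0892), 2 (0.0538) or 3 (0.0639) and without Snf5-/- replicate 1 (0.0848).

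Dkk3 (chr7:112116019-112159482), a divergent member of its family, was at 446, 457 and 409 on the wild type arrays, 465, 688 and 476 on the Snf5-/- arrays and 605, 723, 677 and 675 on the Brg1-/- arrays. All arrays of both mutants exceeded wild type, and the second Snf5-/- array lay within the Brg1-/- range. It rose in Brg1-/- by 0.61 (SE 0.14, adjusted p = 0.00732), as did its second probe set, by 0.53 (adjusted p = 0.0145). The Snf5-/- changes of the 2 probe sets were 0.29 (adjusted p = 0.215) and 0.40 (adjusted p = 0.0865), both without overlap. The Brg1-/- call was lost on the deposited scale (0.14, adjusted p = 0.536) and without wild type replicate 1 (0.48, adjusted p = 0.0509).

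Dkk2, an Lrp5/6 antagonist, was at 898, 1181 and 1168 on the wild type arrays, 1299, 938 and 1196 on the Snf5-/- arrays and 512, 932, 734 and 853 on the Brg1-/- arrays. The Brg1-/- arrays were lowest except for an overlap with the first wild type array. Its Brg1-/- change of -0.54 did not pass (adjusted p = 0.059), whereas on the deposited scale it did (-1.05, adjusted p = 0.000752). Sfrp1 was at 208, 291 and 261 on the wild type arrays, 249, 361 and 668 on the Snf5-/- arrays and 200, 570, 630 and 703 on the Brg1-/- arrays. In each mutant some arrays were high and at least 1 was at the wild type level, and the changes of 0.64 and 0.92 did not pass (adjusted p = 0.344 and 0.117). Its 3 other probe sets changed by 0.15 to 0.36 in Snf5-/- and by 0.34 to 1.66 in Brg1-/- and did not pass; the 1.66 (adjusted p = 0.0526) came from a probe set whose Brg1-/- arrays all lay above wild type. Sfrp4 changed by -0.07 and 0.22 and Sfrp5 by -0.14 and 0.00.

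Axin2, a direct target that feeds back on beta-catenin and is widely used as a readout of the pathway, was at 145, 200 and 235 on the wild type arrays, 232, 141 and 218 on the Snf5-/- arrays and 177, 197, 178 and 383 on the Brg1-/- arrays. The 3 genotypes overlapped. Its change was 0.03 in Snf5-/- (95% confidence interval -0.65 to 0.71) and 0.22 in Brg1-/- (-0.41 to 0.86), intervals that include changes of over 1.5-fold. A second Axin2 probe set, left out by the filter, was at 42.1, 34.2 and 23.8 on the wild type arrays, 5.93, 6.89 and 6.75 on the Snf5-/- arrays and 13.2, 17.2, 7.94 and 40.8 on the Brg1-/- arrays. Fitted without the filter it was lower in Snf5-/- (-2.32, adjusted p = 0.0416), but every mutant array was at or below background, so its level there is only a bound.

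The 16 untested members were dim. They were 12 ligands (Wnt1, Wnt2, Wnt2b, Wnt3, Wnt3a, Wnt5b, Wnt7a, Wnt8a, Wnt8b, Wnt9a, Wnt9b and Wnt10b), with Dkk1, Dkk4, Fzd9 and Lef1. Their highest normalized intensity on any array was 125, for Wnt3a. Dkk4, Wnt3, Wnt9b and Wnt10b were at or below background on all 10 arrays. Lef1, which carries beta-catenin to DNA, reached 70.0 at most and exceeded background on 4 arrays. With no filter all 40 members entered the fit, and 5, 7 and 0 passed in Snf5-/-, in Brg1-/- and between the mutants, against 11.1%, 17.6% and 2.36% of 12393 genes. Wnt2, a ligand of lung and vascular mesenchyme, was at 101, 94.9 and 67.2 on the wild type arrays, 99.5, 51.2 and 109 on the Snf5-/- arrays and 48.8, 5.82, 27.3 and 33.0 on the Brg1-/- arrays, all below wild type (adjusted p = 0.0539), but only 1 of the 4 Brg1-/- arrays was above background, so no size of change is given.

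Direct comparison of Brg1-/- with Snf5-/- called 0 of 24 members in limma, against 4.37% of all genes, and 7 had an unadjusted p below 0.05, as did 21.8% of all genes. Fzd7 (-0.37, adjusted p = 0.0562), Fzd1 (0.87, adjusted p = 0.0935) and Dkk2 (-0.62, adjusted p = 0.0975) came nearest, and in all 3 the arrays of the mutants did not overlap. The second Fzd7 probe set differed the opposite way, by 0.99 (adjusted p = 0.0539), also without overlap. In the fit without the filter the dimmer Wnt7b probe set was higher in Brg1-/- by 1.62 (adjusted p = 0.0441), without overlap. The brighter one differed by -0.23 there (adjusted p = 0.599). Among the 24 tested members 2 were higher and 3 lower without overlap, against 16.9% of all genes. Dkk2 passed on the deposited scale (-0.82, adjusted p = 0.0357), where 4.3% of genes were called. For Fzd2 the difference was -0.01, with a 95% confidence interval of -0.29 to 0.26. Those of Lrp6 (-0.59 to 0.16), Sfrp2 (-0.60 to 1.77) and Wnt16 (-1.66 to 1.46) were wider, and so leave room for larger differences.

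A fixed list of 74 other pathway genes was read beside the members; 61 were on the array and 49 were tested. In Snf5-/- 8 rose and 4 fell (24.5%), and in Brg1-/- 9 rose and 8 fell (34.7%), against the 18.1% and 27.8% of all genes given above. Counts from deposited values were 4 and 5 in Snf5-/-, then 5 and 24 in Brg1-/-, where 44% of all genes were lower. Several are known as inhibitors, and not all of these moved the same way. Cby1, which binds beta-catenin, rose by 2.01 (SE 0.39, adjusted p = 0.00456) and 2.78 (SE 0.37, adjusted p = 0.000206). Its mean went from 57.2 ± 37.6 in wild type (SD, n = 3) to 207 ± 63.4 (n = 3) and 342 ± 37.2 (n = 4). That wild type mean was near background, so the sizes of these rises depend partly on background. Dact1, a Dishevelled-binding regulator, rose by 1.60 and 1.43 (adjusted p = 0.000154 and 0.000124), and Ctnnbip1, which blocks beta-catenin from TCF, by 0.44 and 0.66 (adjusted p = 0.0297 and 0.00157). The secreted Wnt antagonist Frzb went the other way, by -0.87 in Snf5-/- (adjusted p = 0.236) and -1.44 in Brg1-/- (adjusted p = 0.0321). Its mean was 116 in wild type and 44.6 in Brg1-/-, the latter near background. Sostdc1 and Apcdd1, listed with Frzb as extracellular modulators, were higher in both mutants. Sostdc1 rose by 1.88 and 1.74 (adjusted p = 0.0319 and 0.0241), with overlapping arrays and a wild type mean of 50.8, near background. Apcdd1 changed by 1.27 in Snf5-/- (adjusted p = 0.0624) and rose by 1.97 in Brg1-/- (adjusted p = 0.00387).

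Other risers act elsewhere in the pathway. The cell surface proteoglycan Gpc3 rose by 2.03 and 1.44 (adjusted p = 0.000723 and 0.00257), Tnks2, a tankyrase that promotes Axin turnover, by 0.89 and 0.85 (adjusted p = 0.000971 and 0.000477), and the planar polarity gene Vangl1 by 0.54 and 0.63 (adjusted p = 0.0163 and 0.00311). Of 5 tested Tle genes, which encode Groucho-type repressors and a short relative, Tle5, only Tle1 and Tle5 passed. Tle1 fell by 0.74 on the log2 scale in Snf5-/- (adjusted p = 0.017) and by 0.85 in Brg1-/- (adjusted p = 0.0035), and Tle5 by 0.68 and 0.38 (adjusted p = 0.00054 and 0.00774). The changes of Tle2, Tle3 and Tle4 were all above 0, at 0.69, 0.22 and 0.53 in Snf5-/- and 0.75, 0.15 and 0.40 in Brg1-/-. The glypican Gpc6 fell by 1.06 and 0.66 (adjusted p = 0.00597 and 0.031). Nkd2, a Dishevelled inhibitor, fell by 1.96 in Snf5-/- (adjusted p = 0.0147). Its Brg1-/- change of -1.04 did not pass (adjusted p = 0.106), but did on the deposited scale (-1.43, adjusted p = 0.00869). In Brg1-/- Rspo2, an R-spondin that amplifies Wnt signals, fell by 1.31 (adjusted p = 0.00183), Gpc4 by 0.55 (adjusted p = 0.00623) and Prickle1 by 0.68 (adjusted p = 0.0087). The Snf5-/- changes of these genes were 0.04, 0.00 and -0.33 (adjusted p = 0.926, 0.987 and 0.214). Of the 12 tested genes listed with the destruction complex, 1 rose and 0 fell in Snf5-/-, and 1 rose and 1 fell in Brg1-/-. Over all genes 18.1% and 27.8% were called. The riser in both was Tnks2, named above, which is counted in this group. The gene that fell was Fbxw11 (-0.39, adjusted p = 0.0348). Ctnnb1, which encodes beta-catenin, was 8188 ± 246 in wild type (n = 3), 8508 ± 617 in Snf5-/- (n = 3) and 8175 ± 272 in Brg1-/- (n = 4). On the deposited scale Tnks2, Vangl1 and Ctnnbip1 no longer passed in either mutant. There Ctnnb1 changed by -0.27 in Snf5-/- (adjusted p = 0.153) and by -0.59 in Brg1-/- (adjusted p = 0.00114). Apc, Axin1, Gsk3a, Gsk3b, Csnk1a1, Csnk1d, Csnk1e and Fbxw11 also passed there as lower in Brg1-/-, where 44% of all genes were lower. The reading of this group in Brg1-/- thus depends on the scale.

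**Figure D4:**
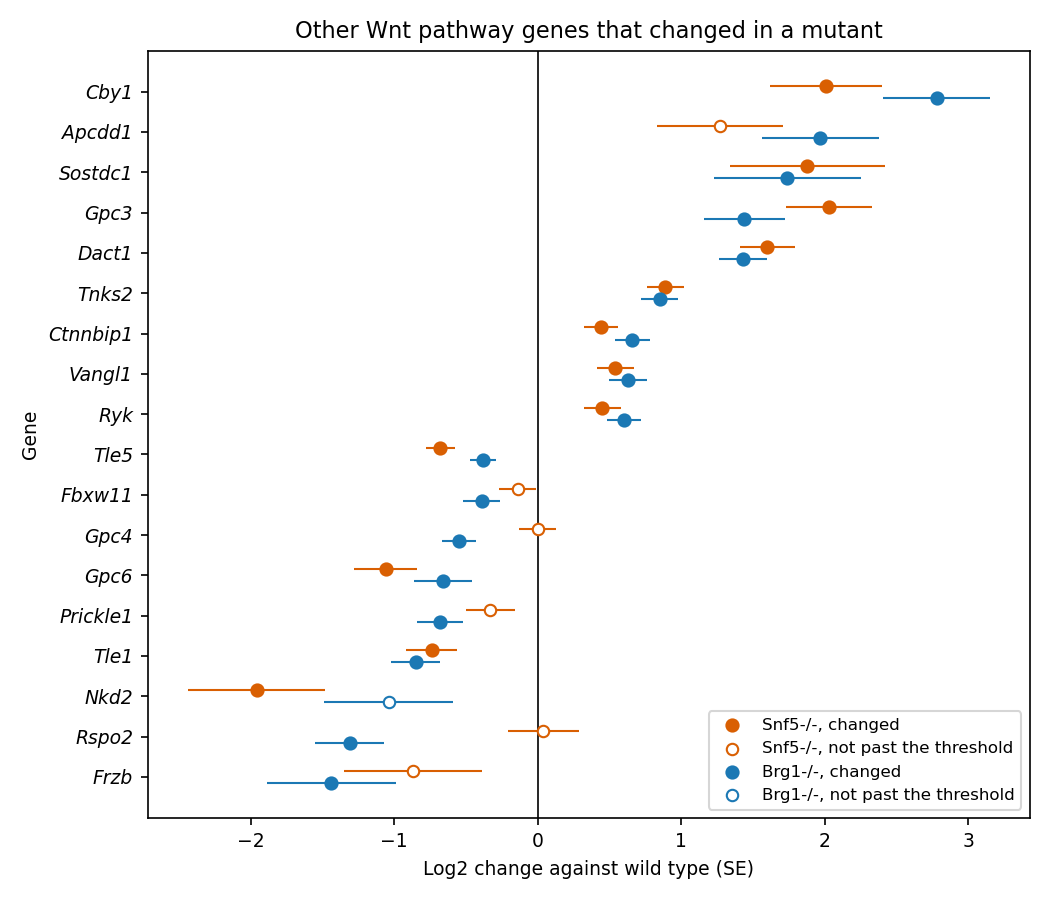
Log2 change against wild type with its SE for the 18 genes of the wider pathway list that changed in either mutant, with filled points past the threshold. The share of all genes that changed in either mutant was not counted. Cby1, Gpc3 and Dact1 lie to the right in both mutants, and Tle1, Tle5 and Gpc6 to the left.

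Of 42 genes listed as Wnt/beta-catenin targets, 37 were on the array and 28 were tested. In Snf5-/- 3 rose and 4 fell (25%), and in Brg1-/- 2 rose and 9 fell (39.3%), against 18.1% and 27.8% of all genes. The median log2 change was -0.31 in each, against 0.02 over all genes. On the deposited scale 1 rose and 12 fell in Snf5-/-, where 16.1% of all genes were lower, and 1 rose and 15 fell in Brg1-/-, where 44% were lower. Many of these genes answer to other pathways as well. Plaur, the urokinase receptor, fell by 1.33 on the log2 scale in Snf5-/- (adjusted p = 0.00339) and by 1.47 in Brg1-/- (adjusted p = 0.000738). The homeobox gene Msx2 fell by 1.05 and 1.34 (adjusted p = 0.00799 and 0.000765), and the AP-1 gene Fosl1 by 1.03 and 0.79 (adjusted p = 0.00134 and 0.00289). Gja1, a gap junction gene, fell by 0.57 and 0.41 (adjusted p = 0.00737 and 0.0182). In Brg1-/- the prostaglandin synthase Ptgs2 fell by 1.52 (adjusted p = 0.00485), Nrcam by 1.33 (adjusted p = 0.00874) and cyclin D1, Ccnd1, by 0.86 (adjusted p = 0.00885). Their Snf5-/- changes of -1.04, -0.97 and -0.66 did not pass (adjusted p = 0.0571, 0.0691 and 0.0579), though all Snf5-/- arrays lay below wild type. On the deposited scale they passed (adjusted p = 0.00255, 0.0371 and 0.00394). The direct comparison of the mutants called none of them (adjusted p = 0.425, 0.55 and 0.619). Birc5, a gene of mitosis, rose by 0.61 and 1.59 (adjusted p = 0.0334 and 4.64e-05), Twist1 by 0.49 and 0.40 (adjusted p = 0.0271 and 0.0347), and Fgf18 by 1.93 in Snf5-/- (adjusted p = 0.0134). The Brg1-/- change of Fgf18 was 1.03 (adjusted p = 0.0971). Its wild type mean of 41.0 was near background, so the sizes of its changes depend partly on background. On the deposited scale Twist1 passed in neither mutant and Birc5 not in Snf5-/- (adjusted p = 0.279).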

How the data were processed

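The authors deposited linear intensity values per probe set, made with MAS5 per the submitters' processing notes; its version, scaling target and filters are not given in the sources used here. Their table held 22690 probe sets, 0 missing values and 0 identical pairs of arrays. Precision is limited by how many arrays there are. The 64 control probe sets and those with several symbols (691) or not listed (1606) in the supplied platform annotation were left out, leaving 20380 with 1 symbol, of which 20351 matched RefSeq (GRCm38.p6) by gene ID.

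The filter asked for the 40th percentile of an array or more on 3 or more arrays, and the brightest stood for its gene. Intensities were quantile-normalized and log2-transformed without a pseudocount. All 10 arrays were fitted with limma 3.58.1 (R 4.3.3), 3 group means, eBayes with an intensity trend and 7 residual degrees of freedom, and two-sided p-values were adjusted over all genes within each of the 3 comparisons. Fits by probe set were adjusted over all probe sets. Replicate numbers did not pair arrays: of 9 same-numbered pairs, correlations of deviations ran from -0.07 to 0.11.

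Members, lists and rules were chosen with earlier results of these data known. Every member is accounted for, members past the threshold or with disagreeing probe sets by array; of the 2 other lists up to 6 genes per direction and mutant with the smallest adjusted p are named. Tle2 to Tle4, Frzb, Sostdc1, Apcdd1 and all named destruction complex genes except Tnks2 were added after their values were seen. In all, 21 alternatives were run, covering scale, filter, floor, probe set rule, variance model, array weights, groups fitted, replicate block and each array left out.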

Additional observations from a re-analysis of the deposited data

Results flagged for a closer look

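The level of Axin2 in Brg1-/- replicate 4 was 383, with the nearest of the other Brg1-/- arrays at 197. Sfrp1 in Brg1-/- replicate 1 was 200, with the nearest of the others at 570, and that array lay at the wild type level. These were the 2 arrays standing apart among 24 groups of 4 arrays examined, and chance gives about 1 in 20.

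The mutants themselves differed, by the direct limma comparison, for 3 genes of the wider lists, 2 of 49 other pathway genes (4.08%) and 1 of 28 targets (3.57%), against 4.37% of all genes. Birc5 was higher in Brg1-/- than in Snf5-/- by 0.98 on the log2 scale (adjusted p = 0.0108), having risen in both against wild type. Rspo2 was lower in Brg1-/-, with a difference of -1.36 (adjusted p = 0.0116), and Gpc4 was lower, with a difference of -0.55 (adjusted p = 0.0322). Arrays of the mutants did not overlap for any of the 3.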

How the results depend on the processing

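Of the 13 calls of members against wild type, 4 held in all 21 alternatives (Fzd2 in both mutants, Lrp6 in Snf5-/- and Sfrp2 in Brg1-/-) and 0 reversed. Wnt16 passed in the 20 alternatives that tested it, but it enters the test through its mutant arrays, was not tested with the filter at the 50th percentile, and is not counted as stable. Fzd3 was tested in 19. The Snf5-/- call of Sfrp2 was also lost without the intensity trend (adjusted p = 0.0561) and with 2 groups fitted (0.0645), and the Fzd3 call with no filter (0.0601). With the replicate block, which the numbers do not support, Fzd3 was lost (adjusted p = 0.0533), 5, 7 and 0 members were called, and 11 target genes in Snf5-/- and 2 between the mutants.

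On the deposited scale the members' median was -0.15 in Snf5-/-, -0.02 in Brg1-/- and -0.12 between the mutants, with 13 target genes called in Snf5-/- and 2 between the mutants, 29 other pathway genes and 3988 genes in all in Brg1-/-, and 1 member between the mutants. With no filter the members' median was 0.02 in Snf5-/- and 0.22 in Brg1-/-, and with the 50th percentile 0.29 in Snf5-/-. Array weights gave 12 target genes in Snf5-/- and 2 between the mutants. With only 2 groups fitted, 17 target genes were called in Brg1-/-, and 149 genes and 1 other pathway gene between the mutants. Without the trend, 193 genes and 1 other pathway gene were called between the mutants; with the mean over probe sets, 242 genes, and the members' median was 0.23.

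Leaving out each array in turn gave 3 to 5 members, 926 to 1664 genes, 7 to 14 other pathway genes, 4 to 12 target genes and a members' median of 0.12 to 0.28 in Snf5-/-. In Brg1-/- these were 5 to 10, 1636 to 2506, 13 to 18, 7 to 15 and 0.31 to 0.45. Between the mutants they were 0 to 0, 119 to 497, 1 to 4, 1 to 3 and -0.06 to 0.18. The cause of these shifts was not tested. Signal near background limits Wnt16 and Wnt10a in wild type, Fzd3 in Brg1-/-, Wnt6 and the dimmer Fzd7 probe set in Snf5-/-, and the untested members. In the wider lists it limits Cby1, Sostdc1 and Fgf18 in wild type and Frzb in Brg1-/-, among others.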

Other observations

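Among the 19 Wnt genes of the array, 4 pairs lie within 100000 bases of each other in GRCm38. These are Wnt6 and Wnt10a on chromosome 1, Wnt3a and Wnt9a on chromosome 11, Wnt9b and Wnt3 on chromosome 11, and Wnt10b and Wnt1 on chromosome 15. Only Wnt6 (chr1:74754342-74785322) and Wnt10a (chr1:74792019-74804176), 6696 bases apart, passed the filter on dim signal. Wnt6 was at 74.2, 133 and 63.6 on the wild type arrays, 27.0, 138 and 131 on the Snf5-/- arrays and 90.9, 145, 157 and 98.0 on the Brg1-/- arrays. Wnt10a was at 120, 113 and 30.6, then 89.1, 97.6 and 115, then 107, 87.9, 97.2 and 119. Arrays of the 3 genotypes overlapped for both genes. On Snf5-/- replicate 1 the deposited Wnt6 value of 26.7 was below the background of 56.6. On wild type replicate 3 the deposited Wnt10a value of 34.9 was below the background of 57.4.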
